A study of Homo sapiens with 10 samples.

Results

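The ID genes ID1, ID2, ID3 and ID4 encode the inhibitors of DNA binding, also called inhibitors of differentiation. They were picked by gene symbol from a table of read counts for 58216 genes, each symbol matched 1 line of the table, and all 4 passed the filter on low counts. The counts came from 10 RNA-seq libraries of TREx293 cells, a derivative of the human embryonic kidney line HEK293 that carries a tetracycline repressor. The 5 groups of 2 libraries were control cells labelled wild type (CTRL) and cells labelled as knock-ins of MN1, of BEND2, of the fusion MN1-BEND2 or of the fusion MN1-CXXC5. MN1 is a transcriptional co-regulator, BEND2 carries BEN domains, CXXC5 carries a CXXC zinc finger, and the series concerns MN1 fusions found in astroblastoma, a brain tumour. The labels' protocols describe cDNAs with an HA epitope tag cloned into pcDNA5/FRT/TO, co-transfection with pOG44, joint blasticidin and hygromycin selection of stable lines, and induction with doxycycline. They name BEND2 chimeras only, and do not say whether the control cells carried an empty vector or received doxycycline. The number of clones or cultures behind each group is also not given, so p-values measure the spread between these libraries, which may be technical.

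ID proteins have a helix-loop-helix domain but no basic region that touches DNA. They pair with the E proteins (TCF3, TCF4 and TCF12) and keep them and their tissue-restricted partners off DNA, and they are known for holding progenitor cells, including those of the nervous system, in an undifferentiated state. In many cell types the ID genes are direct targets of bone morphogenetic protein (BMP) signalling through SMAD proteins.

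The 4 genes lie on separate chromosomes of GRCh38. ID1 (ENSG00000125968) spans chr20:31605283-31606515 on the plus strand and ID2 (ENSG00000115738) spans chr2:8678845-8684453 on the plus strand. ID3 (ENSG00000117318) spans chr1:23557918-23559794 on the minus strand and ID4 (ENSG00000172201) spans chr6:19837386-19840684 on the plus strand. All 4 are protein-coding, and the table gives 1 count per gene and library, with no split by transcript. Taken as whole gene spans, introns included, ID2 overlaps the antisense gene ID2-AS1 over 3019 bases and ID4 overlaps the antisense gene AL022068.1 over 1695 bases. The overlap of their exons was not measured. These antisense genes had 18 to 45 and 4 to 21 counts per library. Whether counting used the strand is not given in the sources used here, so reads in the overlaps cannot be assigned with certainty.

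The promoters are shown because the members moved in different directions in the same libraries. Each line gives the 250 bases before the RefSeq start (GRCh38.p14), 5′ to 3′ on the gene's strand, at chr20:31605039-31605288 (+) for ID1, chr2:8681806-8682055 (+) for ID2, chr1:23559502-23559751 (-) for ID3 and chr6:19837120-19837369 (+) for ID4. The ID2 and ID3 windows, and the last bases of the ID1 window, lie inside the gene spans given above. Those spans start further upstream, so these windows precede the RefSeq start only. Capitals mark TATAA and CCAAT on either strand, and in ID1 the capitals hold overlapping TATAA matches on both strands.
ID1: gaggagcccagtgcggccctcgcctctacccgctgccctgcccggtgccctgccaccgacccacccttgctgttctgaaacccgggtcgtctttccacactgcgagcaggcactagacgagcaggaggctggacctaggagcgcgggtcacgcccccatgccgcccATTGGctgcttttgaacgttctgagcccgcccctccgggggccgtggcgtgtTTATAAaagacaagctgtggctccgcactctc
ID2: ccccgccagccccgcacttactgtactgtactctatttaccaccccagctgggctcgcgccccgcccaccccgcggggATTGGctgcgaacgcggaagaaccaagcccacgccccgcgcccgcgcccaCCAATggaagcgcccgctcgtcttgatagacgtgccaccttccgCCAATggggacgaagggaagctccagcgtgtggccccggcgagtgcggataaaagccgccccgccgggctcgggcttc
ID3: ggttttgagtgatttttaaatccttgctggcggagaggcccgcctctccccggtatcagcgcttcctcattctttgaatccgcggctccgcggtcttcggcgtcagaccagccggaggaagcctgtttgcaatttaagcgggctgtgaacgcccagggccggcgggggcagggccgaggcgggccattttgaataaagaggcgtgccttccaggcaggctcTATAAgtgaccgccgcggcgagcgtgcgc
ID4: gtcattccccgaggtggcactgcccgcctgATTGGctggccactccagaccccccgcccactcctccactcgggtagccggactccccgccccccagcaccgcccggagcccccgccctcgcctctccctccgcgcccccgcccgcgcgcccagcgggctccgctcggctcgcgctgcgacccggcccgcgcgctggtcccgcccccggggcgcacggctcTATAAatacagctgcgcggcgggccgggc
A TATAA was present 29 bases before the start in ID3 and ID4 and at 32 and 31 bases in ID1, and was not among these letters in ID2. CCAAT was found 3 times in ID2, 1 time each in ID1 and ID4, and not in ID3. The GC-box core GGGCGG was found on either strand 6 times in ID4, 2 times each in ID1 and ID2, and 0 times in ID3. The E-box CANNTG, which reads the same on both strands, was found 1 time each in ID2 and ID4. Over 27305 promoter windows of the same length, 19.59% held TATAA, 33.04% held CCAAT, 42.31% held GGGCGG and 62.2% held CANNTG on either strand. GC content of these windows was 66% in ID1, 69.2% in ID2, 62% in ID3 and 78.8% in ID4. A match describes letters only and identifies no bound factor.

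The libraries held 15914424 to 26799613 counts, so that 3 counts, the limit that a count of 0 allows, equal 0.110 to 0.187 CPM (counts scaled to a common library size with TMM factors). MN1 was at 325 and 328 CPM in the MN1 libraries, 291 in each MN1-BEND2 library and 128 in each MN1-CXXC5 library, against 3.81 to 5.39 elsewhere. BEND2 was at 390 to 407 CPM in the BEND2 and MN1-BEND2 libraries, and CXXC5 was highest in the MN1-CXXC5 libraries at 55.2 and 61.9 CPM. All 8 HEK293 markers were detected, meaning a count above 0 in at least 1 library, with a summed level of 874 to 1463 CPM. Of these, LHX1 was near the limit, at 0 CPM in CTRL replicate 1 and at most 0.325 CPM. Of 13 salivary gland and squamous epithelium markers, 12 were detected (HTN3 was at 0), and their sum was 86.0 CPM in CTRL replicate 1 and 77.4 CPM in MN1 replicate 1, against 0.516 to 2.96 CPM in the other 8. The leukocyte marker sum was also highest in these 2 libraries, at 6.72 CPM in CTRL replicate 1 and 7.58 CPM in MN1 replicate 1, against 0.631 to 2.91 CPM in the other 8. Endothelial, erythroid and hepatocyte marker sums lay within 0.156 to 3.12 CPM, and the fibroblast sum within 5.03 to 12.5 CPM. Of the 11 ID gene changes called against CTRL, 10 kept their call and direction when those 2 libraries were left out and in 18 other re-analyses.

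The 4 ID genes did not move together. MN1-BEND2 cells had more ID1, ID2 and ID3 RNA and less ID4 RNA than control cells, MN1-CXXC5 cells had more ID2 RNA and less of the other members, and MN1 cells had less ID2, ID3 and ID4 RNA. A gene was called at a Benjamini-Hochberg adjusted p under 0.05 in edgeR's quasi-likelihood test over 18127 genes. The number of members called was 3 of 4 in MN1, all lower, against 43.0% of all genes. It was 4 of 4 in MN1-BEND2 (3 higher, 1 lower), against 51.9% of all genes, and 4 of 4 in MN1-CXXC5 (1 higher, 3 lower), against 44.3%. In BEND2 it was 0 of 4 in edgeR, with 0 at an unadjusted p under 0.05 and 0 in DESeq2, which set no adjusted p for ID1, against 14.2% of all genes. Since up to 51.9% of all genes were called against CTRL, a call does not set a member apart from other genes, and the sizes follow. These comparisons share the control libraries. In cultures measured in bulk, fewer cells with a transcript and less RNA per cell cannot be told apart.

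**Figure D1:**
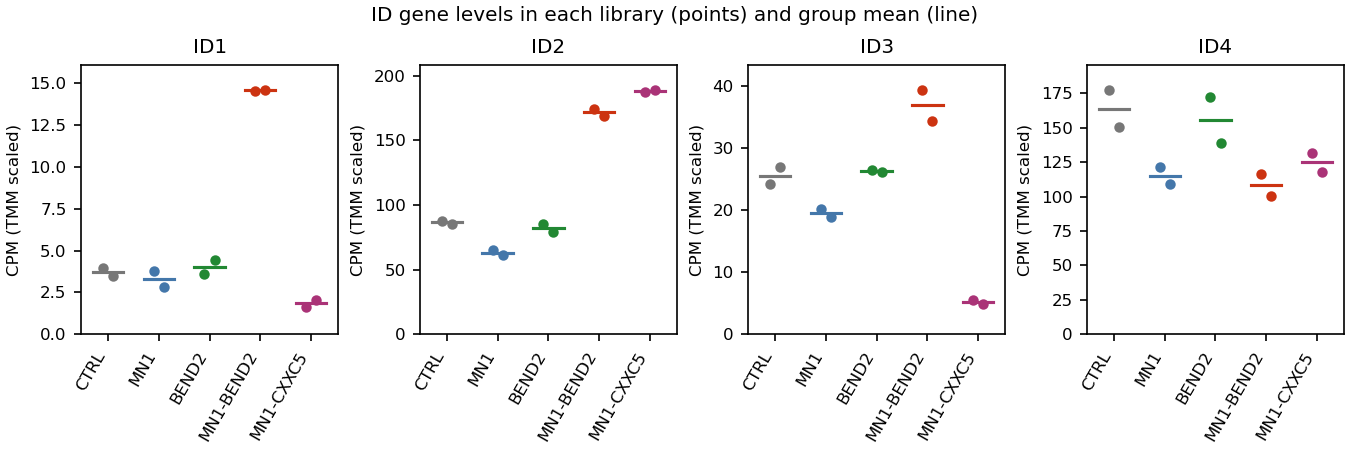
Level of each ID gene in CPM (linear axis from 0) in every library (points) with the group mean (line), for CTRL, MN1, BEND2, MN1-BEND2 and MN1-CXXC5. ID1 stands out in MN1-BEND2 at 14.5 and 14.6 CPM, ID2 is high in both fusions, ID3 is lowest in MN1-CXXC5, and ID4 is highest in CTRL and BEND2.

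ID1, a widely used readout of BMP signalling, had the lowest level per length of the 4 members in CTRL. Its level was 3.96 and 3.51 CPM in CTRL, 3.79 and 2.84 in MN1, 3.63 and 4.43 in BEND2, 14.5 and 14.6 in MN1-BEND2 and 1.66 and 2.06 in MN1-CXXC5. Both MN1-BEND2 libraries lay above all others and both MN1-CXXC5 libraries below all others, while CTRL, MN1 and BEND2 overlapped. Behind these levels were 28 to 99 counts per library outside MN1-BEND2, and 275 and 360 counts within it. ID1 rose 3.91-fold in MN1-BEND2 (log2 fold change 1.97, SE 0.150, edgeR adjusted p = 4.38e-07), which was the 252nd highest change of 18127 genes. In MN1-CXXC5 it fell 1.99-fold (log2 fold change -0.996, SE 0.193, adjusted p = 0.00124). The change in MN1 was -0.17 (95% interval -0.62 to 0.28, adjusted p = 0.475) and in BEND2 0.10 (95% interval -0.33 to 0.52, adjusted p = 0.795), so neither was called, and the interval in MN1 includes changes of the size found there for ID2 and ID3.

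ID2, a member also studied for its binding to the retinoblastoma protein, rose in both fusions. It stood at 87.4 and 85.6 CPM in CTRL, 65.0 and 61.2 in MN1, 85.5 and 79.2 in BEND2, 174 and 169 in MN1-BEND2 and 188 and 189 in MN1-CXXC5. The fusion libraries lay far above the other 6, the MN1 libraries were the lowest, and the BEND2 libraries lay just under CTRL without overlap. The rise was 1.98-fold in MN1-BEND2 (log2 fold change 0.99, SE 0.0415, adjusted p = 3.19e-09) and 2.18-fold in MN1-CXXC5 (1.12, SE 0.0418, adjusted p = 4.03e-09). In MN1, ID2 fell 1.37-fold (-0.45, SE 0.0457, adjusted p = 9.75e-06). The BEND2 difference of -0.06 (95% interval -0.18 to 0.05, adjusted p = 0.376) was not called.

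ID3, which overlaps with ID1 in function in the developing brain, moved in opposite directions in the 2 fusions, as ID1 did. It measured 24.2 and 26.9 CPM in CTRL, 20.2 and 18.9 in MN1, 26.5 and 26.2 in BEND2, 39.4 and 34.4 in MN1-BEND2 and 5.51 and 4.82 in MN1-CXXC5. The MN1-BEND2 libraries were the highest and the MN1-CXXC5 libraries by far the lowest, and the BEND2 values fell between those of CTRL. ID3 rose 1.44-fold in MN1-BEND2 (log2 fold change 0.52, SE 0.0761, adjusted p = 0.000106) and fell 4.96-fold in MN1-CXXC5 (-2.31, SE 0.107, adjusted p = 2.25e-08), the 65th lowest change of all genes tested. In MN1 it fell 1.31-fold (-0.39, SE 0.0834, adjusted p = 0.00252), and in BEND2 the difference was 0.04 (95% interval -0.16 to 0.24, adjusted p = 0.8).

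Fold changes moved with the GC content of genes in these libraries, and this touches ID1 and ID3, whose exons are 58.6% and 57.2% GC. In MN1-CXXC5 the median log2 fold change was -0.40 in the quintile of genes with the highest GC, which holds ID1, and -0.11 in the quintile below, which holds ID2 and ID3. In MN1-BEND2 the same medians were 0.27 and 0.12. With offsets for GC and length, ID1 changed by 1.77 in MN1-BEND2 and by -0.68 in MN1-CXXC5 (adjusted p = 0.0165), and ID3 by 0.35 (adjusted p = 0.0018) and -2.03. All 4 calls held, with the rise of ID3 in MN1-BEND2 reduced by more than a factor of 1.5 on the log2 scale.

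ID4, known for its roles in neural progenitors and glia, was the member with the highest level per length in CTRL. Its levels were 178 and 150 CPM in CTRL, 122 and 109 in MN1, 172 and 139 in BEND2, 116 and 100.4 in MN1-BEND2 and 132 and 118 in MN1-CXXC5. CTRL and BEND2 overlapped, and all 6 libraries that carry MN1 sequence lay below both. ID4 fell 1.42-fold in MN1 (log2 fold change -0.51, SE 0.109, adjusted p = 0.00255) and 1.51-fold in MN1-BEND2 (-0.60, SE 0.108, adjusted p = 0.000538). The fall of 1.31-fold in MN1-CXXC5 (-0.39, SE 0.108, adjusted p = 0.0117) lost its call without CTRL replicate 1 (-0.27, adjusted p = 0.0976), without MN1-CXXC5 replicate 2 (-0.31, adjusted p = 0.0922), and without CTRL replicate 1 and MN1 replicate 1 together (-0.24, adjusted p = 0.131). In BEND2 the difference was -0.06 (95% interval -0.33 to 0.21, adjusted p = 0.759).

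**Figure D2:**
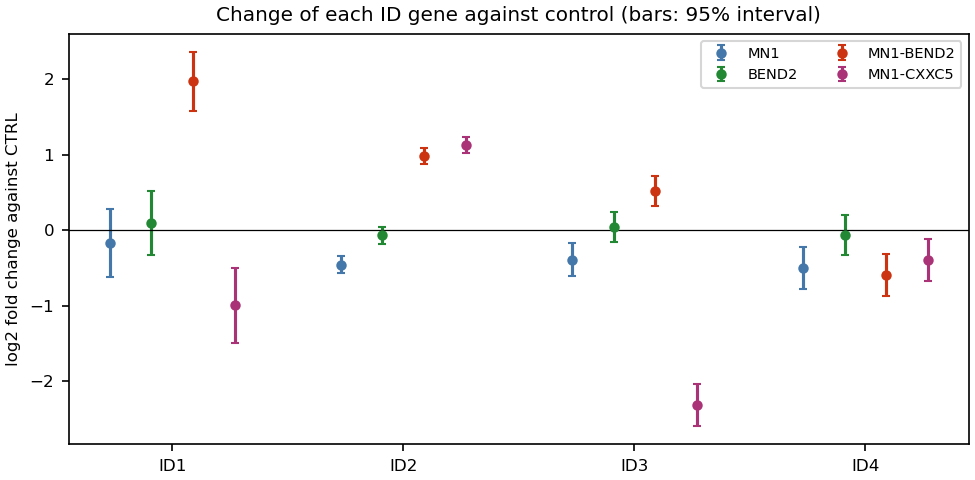
Log2 fold change of each ID gene against CTRL in the 4 construct groups (points) with 95% intervals from the standard error at 5 residual degrees of freedom. ID1 and ID3 lie above 0 in MN1-BEND2 and below 0 in MN1-CXXC5, ID2 lies near 1 in both fusions, and ID4 lies below 0 in MN1 and both fusions.

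Set in order, the groups ranked differently for each gene. For ID1 the order of means was MN1-BEND2 (14.6 CPM), BEND2 (4.03), CTRL (3.73), MN1 (3.31) and MN1-CXXC5 (1.86). BEND2 did not differ from CTRL, nor CTRL from MN1, beyond the spread. MN1-CXXC5 was below MN1 by 0.83 on the log2 scale (log2 fold change -0.83, adjusted p = 0.00443), a call lost with GC and length offsets (-0.45, adjusted p = 0.0969) and without MN1 replicate 1 (-0.58, adjusted p = 0.0728). For ID2 the order was MN1-CXXC5 (188 CPM), MN1-BEND2 (172), CTRL (86.5), BEND2 (82.4) and MN1 (63.1), with only CTRL and BEND2 as neighbours that did not differ. For ID3 it was MN1-BEND2 (36.9 CPM), BEND2 (26.3), CTRL (25.6), MN1 (19.6) and MN1-CXXC5 (5.16), again with only BEND2 and CTRL not told apart. For ID4 it was CTRL (164 CPM), BEND2 (156), MN1-CXXC5 (125), MN1 (115) and MN1-BEND2 (108). There the step from BEND2 to MN1-CXXC5 was the one neighbouring difference called (-0.33, adjusted p = 0.0284), and it was lost without BEND2 replicate 1 (-0.16, adjusted p = 0.333), without MN1-CXXC5 replicate 2 (-0.25, adjusted p = 0.174) and in DESeq2 (-0.30, adjusted p = 0.129).

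The 2 fusions were then compared with each other. MN1 was at 291 CPM in each MN1-BEND2 library, 128 in each MN1-CXXC5 library and 325 and 328 in the MN1 libraries. In comparisons between these lines, the kind of construct and its level cannot be told apart. MN1-BEND2 cells held 7.80-fold more ID1 RNA (log2 fold change 2.96, SE 0.171, adjusted p = 3.6e-08) and 7.13-fold more ID3 RNA (2.83, SE 0.102, adjusted p = 1.13e-09) than MN1-CXXC5 cells, the 85th and 102nd highest changes of 18127 genes. These are the genes that had moved in opposite directions against CTRL. ID2 was slightly lower in MN1-BEND2 (-0.14, SE 0.0396, adjusted p = 0.011), a call lost with scaling by library totals (-0.09, adjusted p = 0.109) and without MN1-BEND2 replicate 2 (-0.11, adjusted p = 0.0841), while GC and length offsets gave -0.39. ID4 differed by -0.21 (95% interval -0.50 to 0.08, adjusted p = 0.129) although the libraries did not overlap. It was called when only the groups compared entered the fit (-0.22, adjusted p = 0.0308). With replicate number as a further term in the fit it was also called (-0.21, adjusted p = 5.33e-05), as it was without the filter on low counts. In all, 3 of 4 members were called (2 higher, 1 lower), against 58.6% of all genes. With GC and length offsets the differences of ID1 and ID3 were 2.44 and 2.38, both called.

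Against unfused MN1, the fusions parted from it in most members. In MN1-BEND2, 3 of 4 members were called, all higher, against 46.3% of all genes. The changes were 2.14 for ID1 (adjusted p = 3.77e-07), 1.44 for ID2 (adjusted p = 3.08e-10) and 0.91 for ID3 (adjusted p = 1.99e-06). ID4 differed by -0.09 (95% interval -0.38 to 0.19, adjusted p = 0.537), and its libraries overlapped. In MN1-CXXC5, 3 of 4 members were called (1 higher, 2 lower), against 48.8% of all genes, with ID2 at 1.58 (adjusted p = 2.49e-10) and ID3 at -1.92 (adjusted p = 7.09e-08) beside the ID1 change given above. ID4 differed there by 0.12 (95% interval -0.17 to 0.40, adjusted p = 0.426).

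Against BEND2, MN1-BEND2 had 4 of 4 members called (3 higher, 1 lower, against 43.6% of all genes) and MN1-CXXC5 4 of 4 (1 higher, 3 lower, against 45.2%). ID1 was 3.66-fold higher in MN1-BEND2 than in BEND2 and 2.13-fold lower in MN1-CXXC5 than in BEND2. MN1 against BEND2 had 3 of 4 members called, all lower, against 31.1% of all genes. ID2 and ID3 were 1.31-fold and 1.35-fold lower in MN1 than in BEND2 (adjusted p = 7.21e-05 and 0.00215). The ID4 difference of -0.44 (adjusted p = 0.00879) lost its call without BEND2 replicate 1 (-0.27, adjusted p = 0.129) and without MN1 replicate 2 (-0.37, adjusted p = 0.0752).

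Because the control and both unfused lines were measured, the change in MN1-BEND2 could be set against the sum of the log2 changes in MN1 and BEND2. ID1, ID2 and ID3 exceeded that sum and ID4 did not. The excess was 2.04 for ID1 (95% interval 1.45 to 2.63, adjusted p = 2.81e-05), 1.51 for ID2 (1.35 to 1.67, adjusted p = 1.12e-08) and 0.87 for ID3 (0.58 to 1.16, adjusted p = 8.88e-05). For ID4 it was -0.03 (95% interval -0.42 to 0.36, adjusted p = 0.908). Thus 3 of 4 members were called, all above the sum, against 36.9% of all genes in either direction. For ID1, ID2 and ID3 the sum lay below 0 while the fusion lay above it. For ID1 the parts of the sum were -0.17 in MN1 and 0.10 in BEND2, and neither was called.

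**Figure D3:**
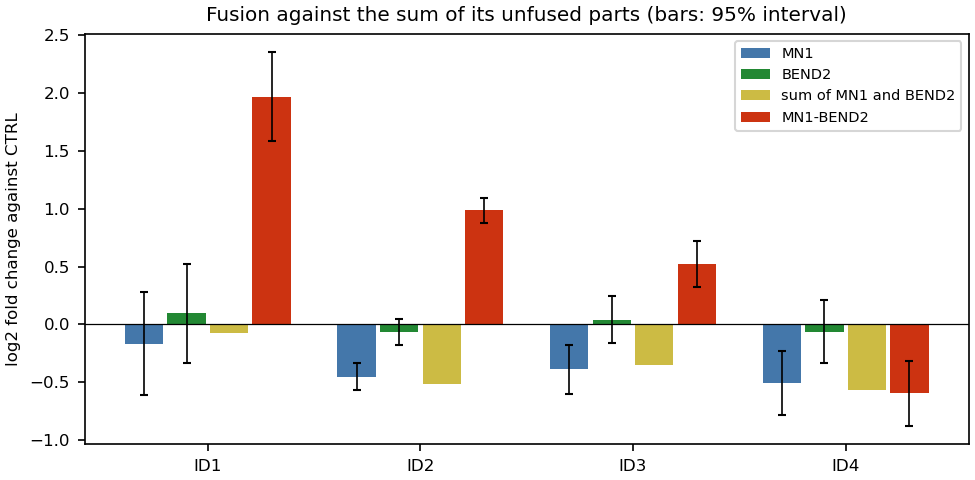
Log2 fold change against CTRL of each ID gene in MN1, BEND2 and MN1-BEND2, with 95% intervals, beside the sum of the MN1 and BEND2 changes (no interval drawn). The MN1-BEND2 bar exceeds the sum by 2.04 in ID1, 1.51 in ID2 and 0.87 in ID3, and lies within 0.03 of it in ID4.

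To compare the members with each other, CPM was divided by the length of each gene's merged exons in kilobases (RPKM). In CTRL the mean level was 70.0 ± 8.24 RPKM for ID4, 39.2 ± 0.559 for ID2, 14.2 ± 1.06 for ID3 and 3.03 ± 0.258 for ID1 (SD, n = 2). This order held in MN1 and BEND2. In both fusions ID2 became the leading member, at 77.8 ± 1.71 RPKM against 46.3 ± 4.83 for ID4 in MN1-BEND2, and at 85.4 ± 0.484 against 53.3 ± 4.10 in MN1-CXXC5. The same orders were found with the longest transcript as the length.

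The make-up of the summed ID RNA differed between groups, as a description with no test. The summed level was 132 and 121 RPKM in CTRL, 95.7 and 87.1 in MN1, 162 and 150.5 in MN1-BEND2 and 146 and 141 in MN1-CXXC5, with BEND2 at 129.96 and 113. The MN1 sums were the lowest and the fusion sums the highest. ID2 supplied 30.0% and 32.1% of the sum in CTRL, 48.7% and 50.9% in MN1-BEND2 and 58.4% and 61.0% in MN1-CXXC5. ID4 supplied 57.4% and 53.1% in CTRL, 30.6% and 28.5% in MN1-BEND2 and 38.6% and 35.9% in MN1-CXXC5. ID3 made up 10.2% and 12.4% in CTRL and 2.10% and 1.91% in MN1-CXXC5, and ID1 made up 2.43% and 2.35% in CTRL and 7.26% and 7.88% in MN1-BEND2.

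Genes around the ID family were followed through 11 lists, compared with the same control libraries and described by counts and medians alone. The median log2 fold change over all 18127 genes was 0.01 in MN1-BEND2 and -0.03 in MN1-CXXC5, 0.0019 in MN1 and 0.0031 in BEND2. Each count is read against the share of all genes called, which was 43.0% in MN1, 14.2% in BEND2, 51.9% in MN1-BEND2 and 44.3% in MN1-CXXC5. A count of 0 in edgeR was also 0 in DESeq2, and 0 at an unadjusted p under 0.05 unless a number is given. DESeq2 moved 15 of 44 list counts by more than 1.5 times.

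The E proteins, the main binding partners of ID proteins, were all expressed. TCF12 fell in all 4 construct groups, by log2 changes of -0.35 in MN1, -0.33 in BEND2, -0.60 in MN1-BEND2 and -0.35 in MN1-CXXC5. TCF4 measured 91.0 and 89.1 CPM in CTRL and 53.4 and 53.1 in MN1-BEND2, a fall of 0.76 on the log2 scale (log2 fold change -0.76, adjusted p = 7.29e-09), but rose in MN1 (0.26) and MN1-CXXC5 (0.22). TCF3 rose in MN1 (0.21) and MN1-BEND2 (0.29) and fell in MN1-CXXC5 (-0.16). Thus 2 of 3 E protein genes fell in each fusion, TCF4 and TCF12 in MN1-BEND2 and TCF3 and TCF12 in MN1-CXXC5 (list medians -0.60 and -0.16). The ratio of summed ID to summed E protein RPKM was 4.25 and 3.93 in CTRL, 3.09 and 2.82 in MN1, 4.45 and 3.89 in BEND2, 5.69 and 5.37 in MN1-BEND2 and 5.35 and 5.23 in MN1-CXXC5. The ratio was highest in the fusions and lowest in MN1, as measured in RNA.

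Of 43 tissue-restricted basic helix-loop-helix (bHLH) factors, which pair with E proteins on DNA, 20 were expressed enough to be tested. In MN1-BEND2 10 of them rose and 0 fell (1 lower at an unadjusted p under 0.05), with a median log2 fold change of 0.52, and DESeq2 called 6, all higher. The share called, 50% of the list, was near the 51.9% of all genes. TWIST1, a mesenchymal regulator, went from 6.14 and 7.53 CPM in CTRL to 14.1 and 13.8 (1.02, adjusted p = 8.11e-06), and OLIG1, an oligodendrocyte lineage factor, rose by 0.73 (adjusted p = 0.00173). In MN1-CXXC5 1 rose and 4 fell, and in MN1 4 rose and 1 fell, but DESeq2 called 1 gene of the list in MN1-CXXC5 and 0 in MN1. In BEND2 0 of 20 were called by edgeR or DESeq2, with 1 at an unadjusted p under 0.05.

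The HES, HEY and DEC genes encode bHLH repressors, several of them targets of Notch signalling. In MN1 8 of 11 fell and 1 rose (median -0.75). HES1 went from 79.2 and 79.5 CPM to 38.6 and 39.9 (log2 fold change -1.01, adjusted p = 6.38e-08), and BHLHE40 from 73.5 and 76.7 to 35.1 and 34.2 (-1.12, adjusted p = 2.88e-08). In MN1-BEND2 5 rose and 3 fell (median 0.38), led by HES7 at 2.18 (adjusted p = 3.31e-08). In MN1-CXXC5 4 rose and 3 fell (median -0.11), with BHLHE41 at 1.08 and HES4 at -1.06. In BEND2 1 rose and 2 fell.

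The genes for CDK inhibitors, which E proteins activate and ID proteins oppose in other cells, were tested for 3 of 4. All 3 rose in MN1-BEND2 (median 0.51). CDKN2B, which encodes p15, went from 36.3 and 36.4 CPM in CTRL to 65.3 and 62.2 (0.81, adjusted p = 4.48e-07), CDKN2A rose by 0.51 and CDKN1A by 0.21. In MN1-CXXC5 CDKN1A (-0.68, adjusted p = 1.9e-06) and CDKN2A (-0.48, adjusted p = 3.54e-06) fell, and CDKN2B was at -0.08 (adjusted p = 0.377), with a median of -0.48. In MN1 CDKN2A and CDKN2B rose and CDKN1A fell, and in BEND2 1 of 3 rose.

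BMP signalling is the best-known activator of ID genes, and its components were followed from ligand to target. Of 8 ligand genes tested, 3 rose in MN1-BEND2 and 0 fell (1 at an unadjusted p under 0.05), with a median of -0.02. BMP2 was at 1.04 and 0.684 CPM in CTRL, 0.669 and 0.589 in MN1, 1.72 and 1.19 in BEND2, 35.3 and 35.3 in MN1-BEND2 and 1.60 and 1.26 in MN1-CXXC5. Only the MN1-BEND2 libraries of these 10 held BMP2 above 2 CPM, and the log2 fold change against CTRL was 5.37 (SE 0.169, adjusted p = 3.41e-10). BMP6 went from 32.0 and 32.8 CPM in CTRL to 77.5 and 79.6 in MN1-BEND2 (1.28, adjusted p = 6.63e-10) and fell in MN1 to 17.4 and 17.1 (-0.91, adjusted p = 2.72e-07). In MN1-CXXC5 1 ligand gene rose and 1 fell, BMP3 with a change of -0.68. MN1 had 1 higher and 3 lower, and BEND2 2 higher.

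Receptor genes moved in both directions in MN1-BEND2 (2 of 10 rose, 3 fell, median -0.04) and MN1-CXXC5 (3 rose, 3 fell, median -0.08), and 6 fell and 2 rose in MN1. ACVRL1, a type I receptor, was at 6.61 and 6.80 CPM in CTRL and 1.84 and 3.10 in MN1-CXXC5 (log2 fold change -1.44, adjusted p = 6.7e-05). RGMB, a co-receptor, rose there from 29.5 and 27.5 CPM to 51.9 and 52.3 (0.87, adjusted p = 1.37e-07).

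Among 8 SMAD genes, MN1-BEND2 cells had 3 higher and 4 lower (median -0.12). Those higher were SMAD1 (0.52) and SMAD9 (0.31), signal carriers of the BMP branch, and the inhibitory SMAD6 (0.60). Those lower included the shared partner SMAD4, at 126 and 124 CPM in CTRL and 80.4 and 76.5 in MN1-BEND2 (log2 fold change -0.67, adjusted p = 4.07e-08). SMAD5, also a signal carrier of the BMP branch, fell from 319 and 305 CPM to 207 and 209 (-0.58). Its level was above those of SMAD1 and SMAD9 in both CTRL and MN1-BEND2. The carriers SMAD2 (-0.73) and SMAD3 (-0.19) were lower too. In MN1-CXXC5 1 rose and 3 fell (median -0.09), in MN1 0 rose and 6 fell (median -0.28), and in BEND2 1 rose and 3 fell.

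The list of BMP antagonists and SMAD ubiquitin ligases also holds BAMBI, SKI and SKIL. Of its 18 tested genes, 10 were higher and 4 lower in MN1-BEND2 (median 0.51). In MN1-CXXC5, 7 were higher and 3 lower (median 0.19). NOG, which encodes the BMP-binding noggin, rose in both fusions, from 4.17 and 3.17 CPM in CTRL to 17.3 and 18.6 in MN1-BEND2 (log2 fold change 2.30, adjusted p = 8.18e-08) and 13.0 and 12.6 in MN1-CXXC5 (1.82, adjusted p = 1.9e-06). SMURF2, a ligase for SMADs and receptors, rose by 0.96 and 0.56. In MN1 7 rose and 2 fell, and in BEND2 4 rose and 2 fell.

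Other genes known as BMP-SMAD targets were mostly higher in MN1-BEND2, where 10 of 13 rose and 2 fell (92.3% called, median 0.48). DLX5, a homeobox gene, went from 3.96 and 2.95 CPM to 7.88 and 8.78 (1.28, adjusted p = 2.78e-05), HEY2 from 19.6 and 19.5 to 42.5 and 44.7 (1.16, adjusted p = 2.34e-07) and BAMBI, a decoy receptor, from 20.5 and 18.8 to 31.8 and 29.3 (0.63, adjusted p = 1.57e-05). HEY1 fell in MN1-BEND2 (-0.52) and rose in MN1-CXXC5 (0.67). In MN1-CXXC5 4 rose and 2 fell (median 0.19), in MN1 0 rose and 5 fell, and in BEND2 1 rose and 0 fell (2 lower at an unadjusted p under 0.05). SMAD6, SMAD7, SMAD9, BAMBI, HEY1 and HEY2 stand in more than 1 of the 11 lists and are counted in each, as does ATOH8 (bHLH factors and BMP-SMAD targets), which is named here only for that, after its values were seen.

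Among 7 tested genes for transcription factors known to act on ID genes, 4 rose and 1 fell in MN1-BEND2 (median 0.11), 2 rose and 3 fell in MN1-CXXC5 (median -0.30), 0 rose and 5 fell in MN1 (median -0.52), and 2 rose and 1 fell in BEND2. MYC, the proto-oncogene whose product activates ID2, was at 106 and 104 CPM in CTRL, 328 and 325 in MN1-BEND2 (log2 fold change 1.64, adjusted p = 5.09e-12) and 175 and 174 in MN1-CXXC5 (0.74, adjusted p = 9.4e-09). EGR1, an immediate-early factor, rose from 9.53 and 10.3 CPM to 28.1 and 28.0 in MN1-BEND2 (adjusted p = 3.45e-08). ATF3, a stress-induced factor known to repress ID1, fell in MN1 from 128 and 138 CPM to 52.4 and 51.1 (-1.36, adjusted p = 8.92e-09). ATF3 also fell in MN1-CXXC5, to 90.9 and 95.7 CPM (-0.51, adjusted p = 6.61e-06). Links between the factors of this list and ID gene levels, such as MYC with ID2 or ATF3 with ID1, were not tested. ZEB1, which represses epithelial genes, rose in both fusions, by 0.35 and 0.75, and fell in MN1 (-0.52). CEBPB fell by 1.42 on the log2 scale in MN1-CXXC5 (log2 fold change -1.42, adjusted p = 3.3e-07).

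Of 7 genes for turnover of ID proteins, 4 fell and 0 rose in each fusion (medians -0.16 in both), 3 fell and 1 rose in MN1, and 3 fell and 0 rose in BEND2. The share called in the fusions was 57.1%, against 51.9% of all genes in MN1-BEND2 and 44.3% in MN1-CXXC5. USP1, which encodes the deubiquitinase that stabilises ID proteins, fell in all 4 construct groups. It was at 345 and 355 CPM in CTRL, 222 and 229 in MN1-BEND2 (-0.63, adjusted p = 2.11e-08) and 308 and 319 in MN1-CXXC5 (-0.16, adjusted p = 0.00203). FZR1, an activator of the APC/C ligase that degrades ID proteins, fell in MN1-CXXC5 from 31.9 and 30.9 CPM to 19.5 and 19.9 (-0.67, adjusted p = 4.18e-06). Protein levels were not measured.

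Genes with a similar pattern to each member were ranked by Pearson's r of log2(CPM + 1) over the 10 libraries. These form 5 groups of 2 and so give few independent points. Ranked genes had a mean of at least 5 CPM and an SD of log2(CPM + 1) at least that of the ID gene divided by 2. Genes with a smaller SD were left out whatever their r, as were clone-based, LINC, antisense and similar names. For ID1 these were DNASE2 (r = 0.988), MFSD12, COL6A2, GTPBP1 and N4BP3, of 799 genes ranked. DNASE2 had a mean of 33.1 CPM in CTRL, 58.8 in MN1-BEND2 and 23.9 in MN1-CXXC5. For ID2 they were BTNL9 (r = 0.991), MYO10, VSTM2B, LRR1 and POU3F3, of 1758 genes, and BTNL9 had a mean of 15.6 CPM in CTRL, 27.8 in MN1-BEND2 and 27.5 in MN1-CXXC5. For ID3 they were TPRA1 (r = 0.985), PAQR4, PKD1, SCARF2 and SIRT6, of 591 genes, with TPRA1 at a mean of 14.3 CPM in CTRL, 17.8 in MN1-BEND2 and 5.80 in MN1-CXXC5. For ID4 they were EDIL3 (r = 0.951), IMMP1L, FBXL4, REPS2 and LDLRAD3, of 8165 genes. The 4 sets of names held no gene in common. With a pseudocount of 0.1 in place of 1, 3 of the 5 names for ID1 stayed, 4 for ID3 and all 5 for ID2 and ID4.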

How the data were processed

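RNA-seq was done on 10 libraries in 5 groups of 2, from total RNA, with 150-base paired reads, per the labels' protocols. The authors deposited whole-number read counts per gene. Per the submitters' processing notes, these used HISAT2, SAMtools 1.0.1, featureCounts 2.0.0 and GRCh38. No source used here gives the annotation release or the strand setting. All 58216 gene IDs were found in GENCODE on GRCh38.

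The deposited counts were fitted in edgeR 4.0.16 (R 4.3.3, limma 3.58.1) with TMM factors, filterByExpr by group and a quasi-likelihood F-test. All 10 libraries entered 1 fit with group as the only term (5 residual degrees of freedom, common biological coefficient of variation 0.0404). P-values were adjusted over 18127 genes for each of 11 comparisons and called under 0.05. Intervals use the standard error and the t quantile at 5 degrees of freedom. Alternatives were DESeq2 1.42.0, other scalings, no filter, GC and length offsets (natural splines), the groups compared alone, a replicate block and leaving out libraries. The fit was also run on simulated counts in which few genes changed, in the MN1-BEND2 group only. Far more genes were called in the deposited data, so that run cannot show how the scaling performed there. Figures were drawn with matplotlib 3.10.9.

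The members and lists were chosen with earlier results of these data known. Named beside the ID genes are, per list and comparison with CTRL, up to 4 called genes with the smallest adjusted p and at least 5 CPM in the higher group. Also named are any E protein, SMAD or CDK inhibitor gene and the 5 genes most like each ID gene. Those 5 had a mean of at least 5 CPM and met the limits on SD and names given above. Promoters come from RefSeq, and all 4 members matched.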

Additional observations from a re-analysis of the deposited data

Results flagged for a closer look

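The change in MN1-BEND2 cells differed from the sum of the changes in MN1 and BEND2 cells, by a test of that difference within edgeR's fit, for 3 of the 4 members. The excess on the log2 scale was 2.04 for ID1, 1.51 for ID2 and 0.87 for ID3. Leaving out each library in turn gave 1.85 to 2.25 for ID1, 1.46 to 1.57 for ID2 and 0.78 to 0.97 for ID3. Each stayed called in all 18 re-analyses of that difference. The cause was not tested.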

How the results depend on the processing

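Of the 11 changes of ID genes called against CTRL, 10 kept direction and call in all 19 alternatives, 1 of which (leaving out CTRL replicate 1 and MN1 replicate 1 together) was chosen after seeing the data. The exception, ID4 in MN1-CXXC5, ranged from -0.51 to -0.27 with single libraries left out and was -0.24 without those 2 libraries. Of 23 calls in the other comparisons, 19 were kept throughout. With single libraries left out, ID1 ranged from -0.39 to 0.026 in MN1 and from -0.037 to 0.25 in BEND2, ID3 from -0.030 to 0.12 in BEND2 and ID4 from -0.23 to 0.073 in BEND2. ID4 ranged from -0.20 to 0.013 in MN1-BEND2 against MN1 and from -0.17 to 0.14 in its excess over the sum. ID3 in BEND2 was -0.012 with GC and length offsets, -0.018 with offsets and the replicate block, and -0.029 without the 2 libraries, where ID4 in BEND2 was 0.061. Counts of genes called in DESeq2 were 4862 for MN1, 861 for BEND2 and 4984 for MN1-CXXC5 against CTRL (7786, 2569 and 8033 in edgeR). They were 5343 and 4831 for MN1-BEND2 against MN1 and BEND2 (8398 and 7909), 2887 and 5237 for MN1 and MN1-CXXC5 against BEND2 (5632 and 8199) and 3786 for the excess over the sum (6687). The count for BEND2 against CTRL was 1642 with offsets, 1239 without the 2 libraries and 1064 to 2526 without single libraries. For MN1 against BEND2 it was 3665 to 5569, and library totals gave 2224 higher of 5543, against 2885 of 5632. The labels name nothing that same-numbered libraries share beyond the number, and the main fit has no pairing. The deviations of replicate 1 from its group mean correlated above 0 between every pair of groups. The correlations ran from 0.066 (MN1 and BEND2) to 0.290 (CTRL and MN1), so some structure follows the replicate number. Its source was not tested. ID4 was higher in replicate 1 than in replicate 2 in all 5 groups. The replicate block gave 4159 genes for BEND2 against CTRL, and called ID4 lower in MN1-BEND2 than in MN1-CXXC5 (-0.21, edgeR adjusted p = 5.33e-05) and in MN1 (-0.09, adjusted p = 0.0446), and higher in MN1-CXXC5 than in MN1 (0.12, adjusted p = 0.0118). ID4 was also called in that first comparison without the filter on low counts and with only the groups compared. Of 836 list counts, 84 moved by over 1.5 times. A fit of only the groups compared was not possible for the excess over the sum. The causes were not tested. Depth limits ID1, which had 28 to 99 counts per library outside MN1-BEND2.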

Other observations

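The nearest tested protein-coding neighbours of the ID genes, picked by position after values were seen, are given with their log2 fold changes against CTRL. HM13, 27.4 kb from ID1, was higher in MN1-BEND2 by 0.22 on the log2 scale (edgeR adjusted p = 0.00021) and changed by -0.22 in MN1-CXXC5 (adjusted p = 0.000386). BCL2L1, 57.9 kb from ID1 on the other side, changed by -0.64 in MN1-CXXC5 (adjusted p = 0.00136) and by -0.17 in MN1-BEND2 (adjusted p = 0.251). KIDINS220, 36.6 kb from ID2, changed by -0.15 in MN1-CXXC5 (adjusted p = 0.0064) and by 0.02 in MN1-BEND2 (adjusted p = 0.617). RNF144A, 1611 kb from ID2 on the other side, changed by -0.22 in MN1 (adjusted p = 0.0356) and by 0.19 in MN1-BEND2 (adjusted p = 0.0439). E2F2, 26.7 kb from ID3, fell in MN1 (-0.44, adjusted p = 5.9e-06) and MN1-CXXC5 (-0.30, adjusted p = 8.82e-05), and was at 0.01 in MN1-BEND2 (adjusted p = 0.948). RPL11, 132 kb from ID3 on the other side, changed by -0.18 in MN1-BEND2 (adjusted p = 0.000992) and by 0.11 in MN1-CXXC5 (adjusted p = 0.0229). MBOAT1, 261 kb from ID4, was not called in any of the 4 comparisons with CTRL (edgeR adjusted p from 0.0532 to 0.97). RNF144B, 1369 kb from ID4, fell in MN1 (-0.57, adjusted p = 2.66e-05) and rose in MN1-BEND2 (0.32, adjusted p = 0.00073). A link between the neighbours and the ID genes was not tested.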
